A study of Mus musculus with 25 samples.

Results

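The genes that cut, trim and package peptide hormones were followed through RB knock-down and RB restoration in the mouse pituitary. The set held 10 genes chosen by symbol: the convertases *Pcsk1* and *Pcsk2*, their partners *Pcsk1n* and *Scg5*, the finishing enzymes *Cpe* and *Pam*, and the granins *Chga*, *Chgb*, *Scg2* and *Scg3*. All 10 were among the 15315 genes of the long-term table, and 9 were among the 14007 genes of the short-term table, where *Pcsk1n* was not analysed here. Whole pituitaries came from 25 sh*Rb* mice that carry a reverse tetracycline transactivator driven by the *Rosa26* promoter and, at *Col1a1*, a GFP-linked shRNA against *Rb* that doxycycline (dox) in the drinking water turns on. In the long-term experiment, sequenced from poly(A)-enriched RNA, 3 female mice had 6 weeks of dox (6w+dox), 2 female and 2 male mice had 12 weeks of dox (12w+dox), and 3 female and 2 male mice had 6 weeks of dox followed by 6 weeks without it (12w-res). In the short-term experiment, sequenced after depletion of ribosomal RNA, 3 male mice had 16 weeks of dox (16w +dox), and others had dox removed for 1 day (1d -dox, 4 female mice), 3 days (3d -dox, 3 male mice) or 5 days (5d -dox, 3 female mice). Every mouse carried the same transgenes, derived from targeted embryonic stem cells with a single shRNA, and had received dox, so no library here shows the untreated pituitary. The labels give no ages. The study states that its long-term dox treatment was begun in young adults, so the mice were older by the weeks of treatment when killed.

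Peptide hormones are made as long precursors. In the secretory granule, prohormone convertases cut the precursor after pairs of basic residues, carboxypeptidase E removes the exposed basic residues, and peptidylglycine alpha-amidating monooxygenase converts a terminal glycine into an amide. Granins are acidic proteins that condense with the hormones and help to form the granules. In the pituitary, corticotrophs use PC1/3 (from *Pcsk1*) to cut pro-opiomelanocortin (POMC) to ACTH, whereas melanotrophs of the intermediate lobe also use PC2 (from *Pcsk2*) and cut further to alpha-MSH. The intermediate lobe is the part in which mice that lack RB form tumors.

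The deposited values are reads per gene divided by size factors and scaled to a common library size (FPM). Libraries held 19066053 to 28968476 reads on genes in the long-term mice and 9573101 to 13036900 in the short-term mice, and each of the 10 genes was covered by 504 reads or more in every mouse in which it was listed. *Pomc* alone took 12.9% to 43.2% of the reads of a long-term library and 4.96% to 17.9% of a short-term library, against 1.77% to 3.15% for the set as a whole. *Rb1*, the target of the shRNA, stood at 1.86 to 5.09 FPM in the 7 dox-treated long-term mice and at 16.1 to 20.3 FPM in the 5 restored mice, and the *Gfp* reporter fell from 1246.5 ± 192 FPM (SD, n = 3) at 16w +dox to 11.7 ± 3.08 FPM at 5d -dox. *Rb1* itself ranged from 3.47 to 6.03 FPM over all 13 short-term mice, and its log2 fold change at 5d -dox was 0.27 ± 0.17 (SE, adjusted p = 0.525), so in these mice the reporter and not *Rb1* marks the removal of dox. The labelled tissue was checked by *Pomc* and by *Pax7* of melanotrophs, which was present in every long-term mouse (106 to 393 FPM). Changes below are limma log2 fold changes on log2(FPM + 0.5), fitted over all genes of an experiment. A gene is called when its Benjamini-Hochberg adjusted p is under 0.05 and its log2 fold change is over 1 in either direction. In these bulk tissues, fewer cells of a type and less RNA per cell cannot be told apart.

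The levels of the 10 genes were first compared per length, as FPM per kb of the longest annotated transcript. *Chga* was the highest member in all 7 groups, at 4264 ± 1366 (SD, n = 3) FPM per kb in the 6w+dox mice, 2825 ± 481 (n = 4) in the 12w+dox mice and 4997 ± 897 (n = 5) in the 12w-res mice, above the range of the member next in order each time. *Pcsk1* was the lowest in all 7 groups, with means of 19.7 ± 2.95, 12.5 ± 2.94 and 45.6 ± 5.35 FPM per kb in the same order. Between these ends some neighbours in order overlapped and others did not. In 12w-res, *Cpe* (1375 ± 132), *Pcsk2* (1284 ± 126), *Scg2* (1121 ± 304) and *Scg5* (1061 ± 88.1) each overlapped the next in order, whereas *Chgb* (1040 ± 233), the next after *Scg5*, lay apart from *Pcsk1n* (259 ± 113). *Chgb* held the second place at 6w+dox (1236 ± 219), apart from *Cpe* (760 ± 218) after it, and the fifth at 12w+dox (530 ± 147), where it overlapped its neighbours. The short-term libraries gave *Chga* 2441 ± 378 and *Pcsk1* 3.11 ± 0.215 FPM per kb at 16w +dox, and because the preparations differ these levels are not compared with the long-term ones.

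**Figure D1:**
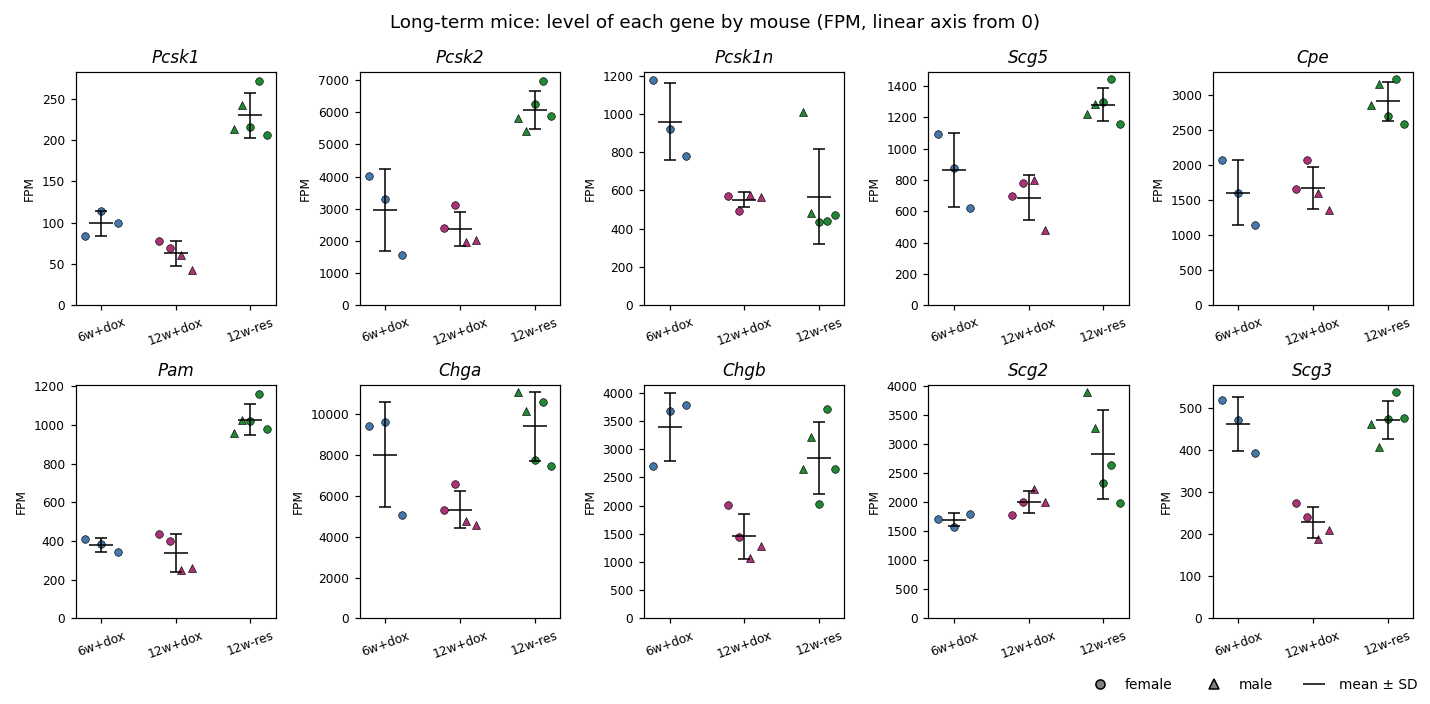
Level of each of the 10 genes in the 12 long-term mice (FPM, linear axis from 0), with circles for female mice, triangles for male mice and bars for the mean ± SD of a group. *Pcsk1*, *Pcsk2*, *Cpe*, *Pam* and *Scg5* lie higher in all 5 restored mice than in all 7 dox-treated mice, whereas *Pcsk1n* does not.

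To follow the set after RB restoration, 12w-res was compared with 12w+dox, the mice killed at the same time but kept on dox. Of the 10 members, 4 were called higher (*Pcsk1*, *Pcsk2*, *Pam* and *Scg3*) and 0 lower, against 6.24% of all 15315 genes called higher and 5.04% called lower. Without the minimum fold change, 7 of 10 had an adjusted p under 0.05 and were higher, against 19.4% of all genes. In 8 of 10 the 5 restored mice all lay above the 4 dox-treated mice, against 17.1% of all genes. The median log2 fold change of the members was 0.95, and that of all genes -0.004. Compared with the 6w+dox mice, which had the same 6 weeks of dox and no time without it, 3 of 10 were called higher (*Pcsk1*, *Pcsk2* and *Pam*, all genes 5.81%) and 0 lower (all genes 5.82%). There, 6 of 10 were higher at an adjusted p under 0.05 alone (all genes 17%), the same 6 had groups that did not overlap (all genes 16.9%), and 1, *Pcsk1n*, was lower at that threshold (all genes 16.8%). Both comparisons use the same 5 restored mice. The members were chosen with earlier results of these data known, so these counts are a description.

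Growth of the lesion on dox was followed by comparing 12w+dox with 6w+dox. Here 2 of 10 members, *Chgb* and *Scg3*, were called lower (all genes 4.04%) and 0 higher (all genes 3.15%). At an adjusted p under 0.05 alone 4 were lower, *Pcsk1* and *Pcsk1n* in addition, against 12.0% of all genes, and the same 4 had groups that did not overlap, against 12.4%. The median of the members was -0.43 and that of all genes -0.0063. The 6w+dox mice were all female. With sex as a covariate 1 member remained called (*Chgb*), and with female mice only, 0 were called, with log2 fold changes of -0.97 for *Chgb* (adjusted p = 0.129) and -0.83 for *Scg3* (adjusted p = 0.0235).

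The scaling sets how far these counts reach. When libraries were scaled by their totals, of which *Pomc* is a large part, the median of all genes moved to 0.29 for 12w+dox vs 6w+dox, -0.61 for 12w-res vs 12w+dox and -0.33 for 12w-res vs 6w+dox, and the members called became 0, 1 (*Pcsk1*) and 2 (*Pam*, and *Pcsk1n* as lower). The split of all calls in 12w-res vs 12w+dox changed from 955 higher and 772 lower to 244 higher and 3364 lower. Relative to the median of all genes, the totals-scaled changes in 12w-res vs 12w+dox were 1.84 for *Pcsk1*, 1.32 for *Pcsk2*, 1.60 for *Pam* and 1.00 for *Scg3*. Taking off that median nearly restores the size-factor scale, where it was -0.004, so these values are not separate support.

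**Figure D2:**
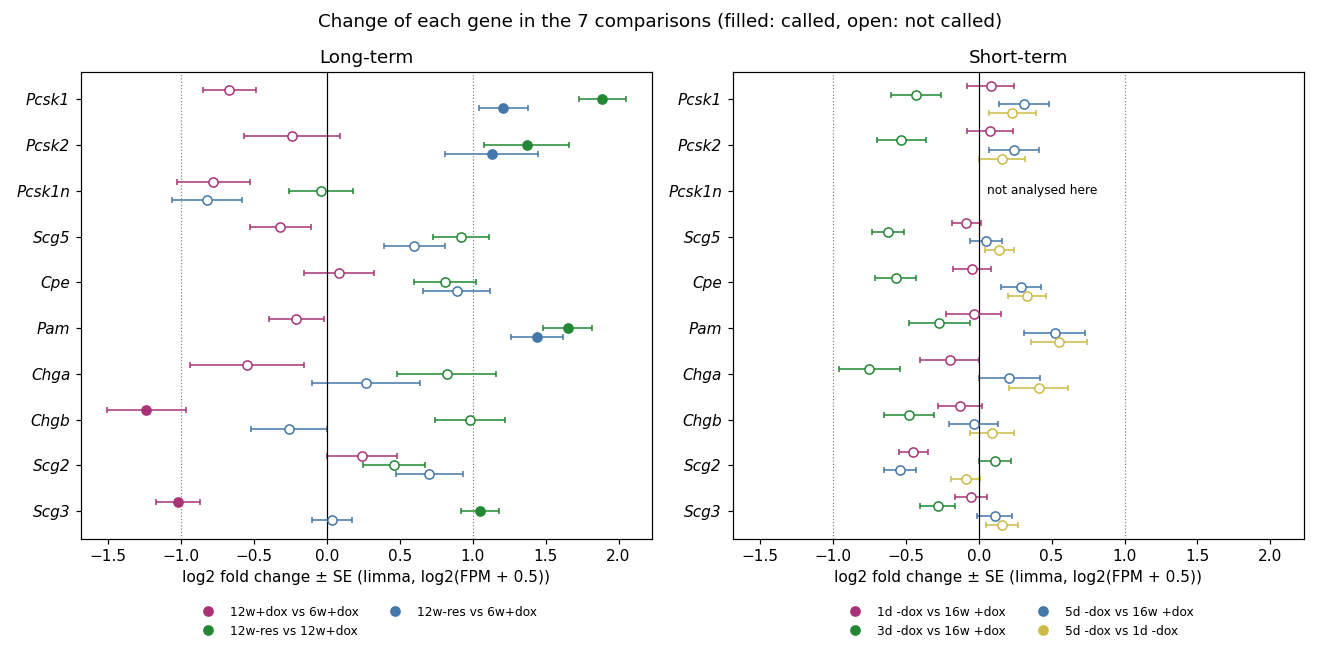
Log2 fold change ± SE of each gene in the 3 long-term and the 4 short-term comparisons, with filled points for called genes and dotted lines at -1 and 1. In 12w-res vs 12w+dox the points run from -0.04 for *Pcsk1n* to 1.89 for *Pcsk1*, and in the short-term panel 0 points are filled.

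*Pcsk1* encodes the convertase that makes the first cuts in POMC. It was measured at 83.9, 113.7 and 99.6 FPM in the 6w+dox mice, 78.2, 68.8, 61.4 and 43.2 FPM in the 12w+dox mice and 213.6, 242.6, 215.3, 271.2 and 206.1 FPM in the 12w-res mice. The 3 groups did not overlap, with the lowest levels at 12w+dox and the highest in 12w-res. *Pcsk1* rose in 12w-res by 1.89 ± 0.16 (SE, adjusted p = 7.54e-07) on the log2 scale over 12w+dox and by 1.21 ± 0.17 (SE, adjusted p = 0.000117) over 6w+dox. From 6w+dox to 12w+dox its log2 fold change was -0.67 ± 0.18 (SE, adjusted p = 0.0167), short of the minimum fold.

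*Pcsk2* encodes the convertase that carries the cutting on to alpha-MSH, and it is also a marker of melanotrophs. Its levels were 4031, 3314.5 and 1563 FPM in the 6w+dox mice, 2399.9, 3111, 1955 and 2029 FPM in the 12w+dox mice and 5810.5, 5409.7, 6246, 6986 and 5872 FPM in the 12w-res mice. All 5 restored mice lay above all 7 dox-treated mice, while both dox-treated groups overlapped and the 6w+dox mice spread widely. The rise in 12w-res was 1.37 ± 0.29 (SE, adjusted p = 0.00218) over 12w+dox and 1.13 ± 0.32 (SE, adjusted p = 0.0132) over 6w+dox. Against 6w+dox the call rests on replicate 3 of that group, the mouse with the lowest *Pcsk2*, since without it the log2 fold change was 0.73 (adjusted p = 0.0344). Among female mice only, the change was 1.22 over 12w+dox (adjusted p = 0.105) and 1.21 over 6w+dox (adjusted p = 0.0554).

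*Pcsk1n* encodes proSAAS, a granin-like protein that binds and inhibits PC1/3. It was measured at 1176, 920.3 and 781.8 FPM in the 6w+dox mice, 571.1, 494.0, 575.2 and 566.2 FPM in the 12w+dox mice and 1009.9, 480.8, 435.0, 441.6 and 471.9 FPM in the 12w-res mice. The 6w+dox mice lay above the 12w+dox mice, and 4 of the 5 restored mice lay below every dox-treated mouse, whereas replicate 1 of 12w-res stood far above the other 4. The log2 fold change was -0.78 ± 0.25 (SE, adjusted p = 0.0403) for 12w+dox vs 6w+dox, -0.04 ± 0.22 (SE, adjusted p = 0.903) for 12w-res vs 12w+dox and -0.82 ± 0.24 (SE, adjusted p = 0.0183) for 12w-res vs 6w+dox. Without replicate 1 of 12w-res, the last of these was -1.05 (adjusted p = 0.00021), past the threshold for a call, and the change from 12w+dox was -0.27 (adjusted p = 0.158). The same mouse held the highest levels of the gonadotroph hormone genes *Lhb* (1040 FPM, the other 4 restored mice 64.4 to 327) and *Fshb* (811 FPM, the others 6.37 to 253) and of the somatotroph hormone gene *Gh* (24746 FPM, the others 6381 to 11630). Of the other markers of these lineages, *Nr5a1* (30.9 FPM) and *Pou1f1* (34.7 FPM) were also highest there. *Gnrhr* (15.9 FPM, replicate 2 at 18) and *Ghrhr* (16.2 FPM, replicate 5 at 17.2) were not, and the lactotroph gene *Prl* was lowest there (5659 FPM). The part of other cell types in the *Pcsk1n* level of this mouse was not tested.

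*Scg5* encodes 7B2, the chaperone that PC2 needs to become active. Its levels were 1094, 874.1 and 624.5 FPM in the 6w+dox mice, 695.5, 781.5, 797.7 and 479.8 FPM in the 12w+dox mice and 1221, 1288.5, 1298, 1443 and 1158 FPM in the 12w-res mice. Every restored mouse was above every dox-treated mouse, and both dox-treated groups overlapped. The change in 12w-res was 0.92 ± 0.19 (SE, adjusted p = 0.00181) over 12w+dox and 0.60 ± 0.21 (SE, adjusted p = 0.0358) over 6w+dox, so both missed the minimum fold. For 12w+dox vs 6w+dox it was -0.32 ± 0.21 (SE, adjusted p = 0.305).

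*Cpe* encodes the carboxypeptidase that trims the cut peptides. It was measured at 2074.5, 1598 and 1153.5 FPM in the 6w+dox mice, 1662, 2077, 1607 and 1359 FPM in the 12w+dox mice and 2867, 3164, 2705, 3229.8 and 2589.8 FPM in the 12w-res mice. As for *Scg5*, the restored mice lay apart from both dox-treated groups, which overlapped each other. The log2 fold change of *Cpe* was 0.81 ± 0.21 (SE, adjusted p = 0.00742) over 12w+dox and 0.89 ± 0.23 (SE, adjusted p = 0.00792) over 6w+dox, both under the minimum fold, and 0.083 ± 0.24 (SE, adjusted p = 0.83) for 12w+dox vs 6w+dox. Against 6w+dox it reached 1.09 (adjusted p = 0.00353) without replicate 1 of that group.

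*Pam* encodes the amidating enzyme, which gives alpha-MSH its amide. Its levels were 411.2, 386.5 and 341.1 FPM in the 6w+dox mice, 438.0, 401.4, 248.4 and 258.8 FPM in the 12w+dox mice and 956.1, 1022, 1018, 1159 and 979.9 FPM in the 12w-res mice. Every restored mouse was above every dox-treated mouse, and at 12w+dox the 2 male mice lay below the 2 female mice. The same split by sex at 12w+dox held for *Pcsk1*, *Pcsk2*, *Cpe*, *Chga*, *Chgb* and *Scg3*, whereas the sexes overlapped there for *Pcsk1n*, *Scg5* and *Scg2*. With only 2 mice of each sex such a split arises easily without a sex difference. Its share over all genes was not counted, so it is not read as an effect of sex on the set. *Pam* rose by 1.65 ± 0.17 (SE, adjusted p = 5.8e-06) over 12w+dox and by 1.44 ± 0.18 (SE, adjusted p = 5.23e-05) over 6w+dox, and its change during growth on dox was -0.21 ± 0.19 (SE, adjusted p = 0.448). The call over 12w+dox held in the female mice and with sex as a covariate, and was lost with totals as the scale (0.99, adjusted p = 4.41e-05).

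Of the 4 granins, 1 (*Scg3*) was called higher in 12w-res vs 12w+dox and 2 (*Chgb* and *Scg3*) lower in 12w+dox vs 6w+dox. *Chga*, the most abundant member, was measured at 9423.5, 9604 and 5062 FPM in the 6w+dox mice, 5309, 6598, 4777 and 4594 FPM in the 12w+dox mice and 11096, 10156, 7749, 10599 and 7449 FPM in the 12w-res mice. The restored mice lay above the 12w+dox mice, and the 6w+dox mice overlapped both groups. Its log2 fold change was 0.82 ± 0.34 (SE, adjusted p = 0.0722) for 12w-res vs 12w+dox, 0.27 ± 0.37 (SE, adjusted p = 0.608) for 12w-res vs 6w+dox and -0.55 ± 0.39 (SE, adjusted p = 0.328) for 12w+dox vs 6w+dox, so *Chga* was called in 0 of these 3 comparisons.

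*Chgb*, a granin that like *Chga* helps form dense-core granules, was measured at 2697, 3674 and 3788 FPM in the 6w+dox mice, 2012.5, 1449, 1075 and 1275 FPM in the 12w+dox mice and 2647, 3211, 2029.9, 3710.4 and 2649 FPM in the 12w-res mice. The 12w+dox mice lay below both other groups, which overlapped. *Chgb* fell from 6w+dox to 12w+dox, with a log2 fold change of -1.24 ± 0.27 (SE, adjusted p = 0.00691). Its change in 12w-res was 0.98 ± 0.24 (SE, adjusted p = 0.00576) over 12w+dox, just under the minimum fold, and it passed that minimum when replicate 1 of 12w+dox or replicate 1, 3 or 5 of 12w-res was left out (1.00 to 1.15). Against 6w+dox the restored mice differed by -0.26 ± 0.26 (SE, adjusted p = 0.469).

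*Scg3* encodes the granin that links the other granins and their cargo to the granule membrane. Its levels were 518.9, 472.2 and 393.1 FPM in the 6w+dox mice, 273.2, 241.7, 188.0 and 210.5 FPM in the 12w+dox mice and 460.9, 408.0, 474.1, 536.8 and 475.2 FPM in the 12w-res mice. The 12w+dox mice were again the lowest, and the restored mice overlapped the 6w+dox mice. *Scg3* fell by 1.02 on the log2 scale from 6w+dox to 12w+dox (SE 0.15, adjusted p = 0.000754) and rose by 1.05 ± 0.13 (SE, adjusted p = 4.16e-05) in 12w-res over 12w+dox, while 12w-res and 6w+dox differed by 0.034 ± 0.14 (SE, adjusted p = 0.879). Both calls lay close to the minimum fold. The fall went under it without replicate 3 or 4 of 12w+dox or replicate 1 or 2 of 6w+dox (to -0.93 at the least), and the rise without replicate 3 of 12w+dox (0.96, adjusted p = 0.000198) or in female mice only (0.94).

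*Scg2* encodes secretogranin II, the precursor of secretoneurin. It was measured at 1713, 1573 and 1792 FPM in the 6w+dox mice, 1782, 1995, 2230.1 and 1994 FPM in the 12w+dox mice and 3892.5, 3269.6, 2322.5, 2632 and 1983 FPM in the 12w-res mice. Its highest levels were those of the 2 male restored mice, and the 3 female restored mice overlapped the 12w+dox group. The log2 fold change was 0.46 ± 0.21 (SE, adjusted p = 0.105) over 12w+dox and 0.70 ± 0.23 (SE, adjusted p = 0.0326) over 6w+dox, the latter under the minimum fold, and 0.24 ± 0.24 (SE, adjusted p = 0.51) for 12w+dox vs 6w+dox.

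Markers of some other pituitary and stromal cells moved with these groups, and those of others did not. The summed level of 3 somatotroph markers, nearly all of it *Gh*, ranged from 45927 to 80250 FPM in the 6w+dox mice, from 934 to 7554 in the 12w+dox mice and from 6409 to 24797 after restoration, and the lactotroph hormone gene *Prl* from 9172 to 11704, from 214 to 4940 and from 5659 to 11697. All 3 somatotroph markers were called lower in 12w+dox vs 6w+dox. In 12w-res vs 12w+dox *Gh* was called higher (log2 fold change 2.31), and *Ghrhr* (0.84) and *Pou1f1* (0.90) were not called. In 12w-res vs 12w+dox, 4 of 4 fibroblast and 4 of 5 endothelial markers were called higher, and in 12w+dox vs 6w+dox 3 of 4 and 2 of 5 were called lower. Of the melanotroph markers outside the set, *Pax7* stood at 106 to 117, 224 to 393 and 195 to 233 FPM and *Drd2* at 202 to 252, 410 to 685 and 316 to 476 FPM in the same order of groups. *Tbx19*, the factor that opens the *Pomc* lineage, was called in 0 of the 3 comparisons. The part of these cells in the levels of the set was not tested.

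Reads of each member were also set against those of *Pomc*, the precursor that the enzymes of the set act on. *Pomc* itself was measured at 376655, 199141 and 107477 FPM in the 6w+dox mice, 152371, 194592, 127989 and 93231 FPM in the 12w+dox mice and 494555, 452682, 495137, 573321 and 483817 FPM in the 12w-res mice, with all restored mice above all dox-treated mice. Its limma log2 fold change was 1.86 ± 3.08 (SE) over 12w+dox with an adjusted p of 0.663. The fit takes part of each variance from genes of similar level, and *Pomc* has by far the most reads. That SE is much wider than the spread between mice, with SDs of 60.1%, 30% and 8.91% of the group means in the same order. This p is therefore no measure of the difference between the 2 groups, which do not overlap. The ratios to *Pomc* are a description without a test, and the choice of size factors cancels in them. *Pcsk1* had a median of 0.571 reads per 1000 *Pomc* reads at 6w+dox (range 0.223 to 0.927), of 0.472 at 12w+dox (0.354 to 0.513) and of 0.435 in 12w-res (0.426 to 0.536). *Pam* had medians of 1.94 (1.09 to 3.17), 2.42 (1.94 to 2.87) and 2.03 (1.93 to 2.26). From 12w+dox to 12w-res the mean log2 difference was 0.024 for *Pcsk1* and -0.21 for *Pam*, and both genes overlapped between these groups. The other 8 had log2 differences from -0.49 for *Pcsk2* to -1.90 for *Pcsk1n*. *Pcsk2* went from 15.9 (15.3 to 21.8) to 12.1 (11.7 to 12.6) per 1000 *Pomc* reads, *Scg5* from 4.86 (4.02 to 6.23) to 2.52 (2.39 to 2.85), *Cpe* from 11.7 (10.7 to 14.6) to 5.63 (5.35 to 6.99) and *Chga* from 36.1 (33.9 to 49.3) to 18.5 (15.4 to 22.4). The median log2 difference over the 10 members was -0.91 for 12w-res vs 12w+dox, -0.66 for 12w-res vs 6w+dox and 0.11 for 12w+dox vs 6w+dox. These falls in 12w-res are not particular to the set. *Pomc* rose there by 1.86 and 1.31, while the median of all genes was -0.004 and -0.021. A gene at that median therefore fell against *Pomc* too, and by more than the median member.

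**Figure D3:**
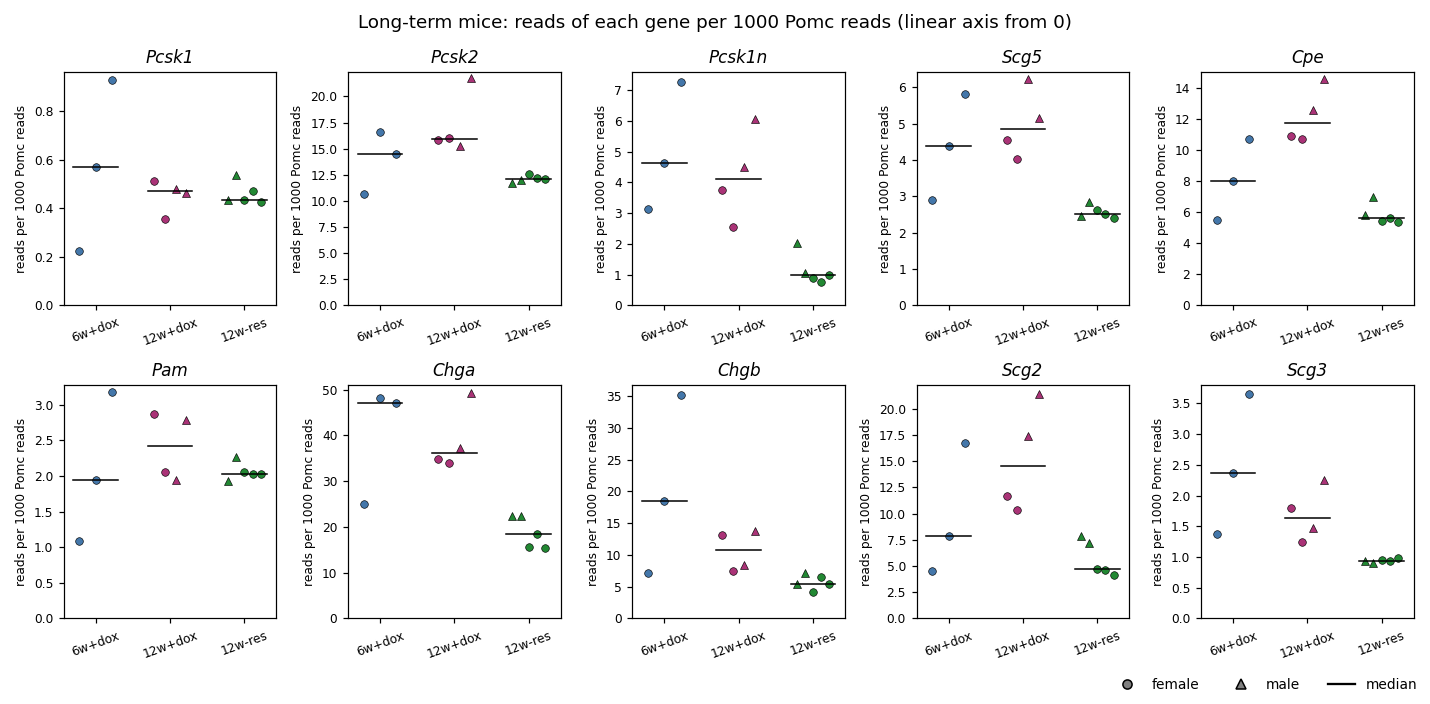
Reads of each gene per 1000 *Pomc* reads in the 12 long-term mice (linear axis from 0), with circles for female mice, triangles for male mice and lines for group medians. The medians of all 10 genes are lower in 12w-res than at 12w+dox, by little for *Pcsk1* (0.472 and 0.435) and more for *Cpe* (11.7 and 5.63). *Pomc* itself rose between these groups (log2 fold change 1.86), so a gene without any change would be lower here as well.

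The balance within the set was tested by 3 ratios with an exact two-sided permutation test over mice, adjusted over 17 comparisons. The log2 ratio of *Pcsk2* to *Pcsk1* went from 5.23 ± 0.32 (SD, n = 4) on 12 weeks of dox to 4.72 ± 0.15 (n = 5) after restoration, a difference of -0.51 or 1.43-fold (exact p = 0.0159, the smallest these group sizes allow, adjusted p = 0.121). All 5 restored mice lay below all 4 dox-treated mice in this ratio. The ratio of *Pcsk1* to its inhibitor *Pcsk1n* went from -3.15 ± 0.40 in the 12w+dox mice and -3.26 ± 0.47 (n = 3) in the 6w+dox mice to -1.23 ± 0.59 in 12w-res, a difference of 1.93 (exact p = 0.0159, adjusted p = 0.121) and of 2.03 (exact p = 0.0357, adjusted p = 0.121). In FPM, *Pcsk1* stood at 0.0717 to 0.14 of *Pcsk1n* in the 7 dox-treated mice and at 0.212 to 0.615 in the 5 restored mice. The log2 ratio of *Pcsk2* to its chaperone gene *Scg5* was 1.79 ± 0.35 in the 12w+dox mice, 1.71 ± 0.33 in the 6w+dox mice and 2.24 ± 0.10 after restoration, with differences of 0.45 (exact p = 0.0317) and 0.53 (exact p = 0.0357) and an adjusted p of 0.121 for each. Of the 17 ratio comparisons, 0 passed after adjustment and 5 had an unadjusted exact p under 0.05. None of the 17 could pass after adjustment, whatever the values. The smallest exact p these group sizes allow is 0.0159 (5 against 4 mice), 0.0357 (5 against 3), 0.0571 (4 against 3) and 0.1 (3 against 3). Over 17 comparisons these are too large to stay under 0.05 once adjusted, so the adjusted p cannot decide whether a ratio changed.

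The other genes of the pathway were counted in 5 lists, chosen with earlier results of these data known, so their counts are a description and not a separate test. Over all genes, the shares called higher and lower were 6.24% and 5.04% in 12w-res vs 12w+dox, 5.81% and 5.82% in 12w-res vs 6w+dox, and 3.15% and 4.04% in 12w+dox vs 6w+dox. Of 13 further convertases and peptidases tested, 4 were called higher and 2 lower in 12w-res vs 12w+dox (median 0.22), with *Ctsl*, a cathepsin able to cut prohormones, from 199 ± 35.6 to 443 ± 34.1 FPM (log2 fold change 1.17 ± 0.15, adjusted p = 4.49e-05) and *Cpm*, a membrane carboxypeptidase, higher by 1.09, and with *Cpz* (-1.50) and *Pcsk4* (-1.22) lower. Against 6w+dox 1 was higher (*Ctsl*, 1.19) and 1 lower (*Cpz*, -1.88), and 12w+dox vs 6w+dox had 0 higher and 2 lower, with *Cpm* at -1.28. Among 14 other granin and dense-core vesicle genes, 4 were higher and 1 lower in 12w-res vs 12w+dox (median 0.15). *Vgf*, a granin-family precursor, rose by 2.27 ± 0.25 (adjusted p = 1.24e-05) from 139 ± 52.6 to 645 ± 120 FPM, and *Nucb2*, the precursor of nesfatin, by 1.90 ± 0.21, while *Cadps2*, a priming factor of vesicles, was lower by 1.12 on the log2 scale, its log2 fold change being -1.12 ± 0.12 (adjusted p = 8.73e-06). Against 6w+dox 3 of these 14 were higher and 0 lower, led by *Vgf* (1.49) and *Ccdc186* (1.48), and in 12w+dox vs 6w+dox 1 was higher (*Ccdc186*, 1.58) and 2 lower (*Nucb2*, -1.27, and *Syt7*, a calcium sensor of exocytosis, -1.06).

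Of 17 subunits of the proton pump that acidifies granules, 2 were higher and 0 lower in 12w-res vs 12w+dox, the accessory subunits *Atp6ap2* (1.10 ± 0.14, adjusted p = 3.67e-05) and *Atp6ap1* (1.01 ± 0.13, adjusted p = 4.53e-05). Against 6w+dox 0 of the 17 were called by limma, with 3 at an adjusted p under 0.05 alone, and in 12w+dox vs 6w+dox 1 was higher (*Atp6v1a*, 1.05). The 8 other modifying enzymes and copper carriers had 0 calls in 12w-res vs 12w+dox and in 12w+dox vs 6w+dox and 1 higher in 12w-res vs 6w+dox (*Qpctl*, 1.16). Of 11 precursors tested (*Pomc* included), 4 were higher and 0 lower in 12w-res vs 12w+dox, with galanin (*Gal*) from 2.68 ± 1.52 to 45.7 ± 14.8 FPM (3.95 ± 0.33, adjusted p = 7.29e-07) and neuromedin B (*Nmb*) from 6.56 ± 6.09 to 65.9 ± 11.3 FPM (3.64 ± 0.43, adjusted p = 2.62e-05). Against 6w+dox 3 rose and 3 fell. *Gal* and *Nmb* were again among the 3 that rose (4.37 and 2.86), and *Avp* (-4.56) and *Oxt* (-2.60), hormones of the neural lobe, were among the 3 that fell. In 12w+dox vs 6w+dox 1 precursor was higher (*Igf2*, 1.39) and 4 lower, led by *Avp* (-3.99) and *Oxt* (-3.20), with the summed neural lobe markers at 35.1 to 107 FPM in the 6w+dox mice and 3.66 to 6.21 in the 12w+dox mice. In the short-term experiment 0 genes of the 5 lists were called by limma in the 4 comparisons.

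The genes lie on 7 chromosomes of the mouse assembly GRCm38.p6. They were placed at chr13:75089420-75134861 (*Pcsk1*), chr2:143546133-143816284 (*Pcsk2*), chrX:7919822-7924410 (*Pcsk1n*), chr2:113776313-113829091 (*Scg5*), chr8:64592542-64693109 (*Cpe*), chr1:97821091-98095853 (*Pam*), chr12:102554941-102565027 (*Chga*), chr2:132781642-132795079 (*Chgb*), chr1:79434366-79440026 (*Scg2*) and chr9:75643366-75685959 (*Scg3*). In the 250 bases before the start used in the RefSeq table, available from RefSeq for 9 of the 10, the cAMP response element TGACGTCA was found in 3 (*Pcsk1*, *Chgb* and *Scg2*), against 1.55% of 32851 mouse promoter windows of the same length. The shorter TGACG, searched on both strands and part of the full element, was found in 7 of 9 (all but *Pam* and *Pcsk1n*), against 17.8%. The E2F-type motifs TTTGGCGC and TTTCGCGC, bound by the partners of RB, were found in 0 of 9, against 0.654% of all windows, and TATAAA in 0 of 9, against 12.4%. The sites are shown because the full element is shared by genes that moved differently in 12w-res, *Pcsk1* among the called members and *Scg2* not. Each line runs 5′ to 3′ on the gene's own strand with the motif in capitals and 11 bases on either side (CGTCA in *Pcsk2* is TGACG on the other strand), first the 3 full elements and then the shorter ones.
Pcsk1: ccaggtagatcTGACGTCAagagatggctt
Chgb: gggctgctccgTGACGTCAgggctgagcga
Scg2: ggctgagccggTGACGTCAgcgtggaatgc
Pcsk2: tggcgggcgcgCGTCAcccgggctggc
Scg3: cgctgggtcgcTGACGccatcctcacg
Scg5: aaggaggtaaaTGACGttcataggggt
Chga: gggcggtcctaTGACGtaatttcctgg
The full elements sit 78 to 71 bases before the start of *Pcsk1* (chr13:75089768-75089797, plus strand), 72 to 65 before that of *Chgb* (chr2:132781559-132781588, plus strand) and 68 to 61 before that of *Scg2* (chr1:79440076-79440105, minus strand). Those of *Pcsk2* (chr2:143546088-143546114, plus strand), *Scg3* (chr9:75684071-75684097, minus strand), *Scg5* (chr2:113829251-113829277, minus strand) and *Chga* (chr12:102554886-102554912, plus strand) lie 34 to 30, 30 to 26, 175 to 171 and 44 to 40 bases before the start. *Pcsk1* holds a second TGACG (chr13:75089796-75089822), 50 to 46 bases before the start, which is not printed. For *Pcsk1* and *Scg3* the start used in the RefSeq table lies inside the outermost gene boundaries given above, so their sites fall within those boundaries. A match of letters is a description of the promoter and not a test of binding.

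The short-term experiment followed the set over the first days after dox removal. Of the 9 members tested, 0 were called by limma in each of the 4 comparisons, and edgeR and DESeq2 on the recovered reads also called 0. All genes gave 0.0430% called at 1d, 0.129% at 3d and 0.193% at 5d against 16w +dox, and 0.0143% for 5d against 1d. At an unadjusted p under 0.05, 1, 7, 2 and 2 of the 9 were counted in that order, beside 1823, 2323, 1889 and 883 of all 13958 genes tested. Only 3d against 16w (all male) and 5d against 1d (all female) stay within a sex.

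At 3 days 8 of the 9 members had negative log2 fold changes, with a median of -0.48 against 0.0092 for all genes. In 7 of 9 the 3 mice at 3d -dox lay below the 3 at 16w +dox, against 11% of all genes, and 1 (*Scg5*) had an adjusted p under 0.05, against 0.201%. *Scg5* was measured at 178.4, 207.4 and 187.4 FPM at 16w +dox, 182.6, 186.5, 155.7 and 196.9 FPM at 1d -dox, 126.8, 128.7 and 117.0 FPM at 3d -dox and 180.7, 180.7 and 236.2 FPM at 5d -dox. The 3d -dox mice were the lowest of the 4 groups, and the other 3 groups overlapped. Its change was -0.62 ± 0.11 (SE, adjusted p = 0.0413), within the minimum fold. Over 18 alternative settings, edgeR and DESeq2 included, it ran from -0.67 to -0.47 and its adjusted p from 7.47e-05 to 0.179, so passing 0.05 depended on the setting. *Chga* had the lowest log2 fold change, -0.75 ± 0.21 (SE, adjusted p = 0.126), with 3897, 5321.5 and 4572 FPM at 16w +dox, 4887.5, 4344, 3129 and 3749 FPM at 1d -dox, 2931, 3146 and 2168 FPM at 3d -dox and 4825, 4997 and 6088 FPM at 5d -dox. *Cpe*, next after *Chga* and *Scg5*, was at -0.57 ± 0.14 (SE, adjusted p = 0.0826), with 383.2, 412.4 and 416.3 FPM at 16w +dox, 391.7, 436.8, 333.7 and 408.7 FPM at 1d -dox, 270.0, 321.2 and 231.2 FPM at 3d -dox and 438.1, 460.4 and 592.9 FPM at 5d -dox. All 3 genes were again higher at 5 days, where their values lay within or above those at 16w +dox.

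*Pcsk2* was measured at 789.2, 726.4 and 882.9 FPM at 16w +dox, 873.5, 1012, 676.4 and 838.1 FPM at 1d -dox, 563.9, 653.5 and 458.1 FPM at 3d -dox and 833.8, 858.0 and 1159.8 FPM at 5d -dox. Its change at 3 days was -0.53 ± 0.17 (SE, adjusted p = 0.153). *Pcsk1*, the least abundant member, gave 15, 15.1 and 16.9 FPM at 16w +dox, 13.6, 18.5, 15.3 and 19.6 FPM at 1d -dox, 10.9, 11.7 and 11.9 FPM at 3d -dox and 17.9, 15.4 and 27.1 FPM at 5d -dox, with a change of -0.43 ± 0.17 (SE, adjusted p = 0.223) at 3 days and 0.31 ± 0.17 (SE, adjusted p = 0.44) at 5 days. Both convertases thus had their lowest group at 3 days, and for neither did the change pass the test.

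*Pam* was measured at 142.6, 153.6 and 134.2 FPM at 16w +dox, 139.2, 188.6, 97.8 and 148.9 FPM at 1d -dox, 125.8, 131.9 and 101.3 FPM at 3d -dox and 187.0, 167.6 and 275.9 FPM at 5d -dox. It was the member with the most positive change at 5 days, 0.52 ± 0.21 (SE, adjusted p = 0.293) against 16w +dox and 0.55 ± 0.19 (SE, adjusted p = 0.685) against the 1d -dox mice of the same sex. *Chgb* gave 876.7, 1278 and 922.3 FPM at 16w +dox, 1069.9, 1005, 772.4 and 886.3 FPM at 1d -dox, 679.8, 663.3 and 837.9 FPM at 3d -dox and 889.0, 939.3 and 1149.6 FPM at 5d -dox, and *Scg3* 96.7, 138.1 and 110.5 FPM at 16w +dox, 106.2, 117.7, 96.2 and 120.8 FPM at 1d -dox, 88.1, 101.6 and 92.6 FPM at 3d -dox and 121.0, 114.9 and 133.8 FPM at 5d -dox. Every 3d -dox mouse was below every 5d -dox mouse for both genes, and below every 16w +dox mouse for *Chgb*.

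*Pomc* was also lowest in the 3d -dox mice, at 23410.3, 28065 and 11837 FPM against 35872.5, 34394 and 36965 at 16w +dox, and the members against *Pomc* had a median log2 difference of 0.37. Replicate 3 held the least *Pomc*, and without it this median was 0.03. Markers of 3 other pituitary lineages overlapped between 3d -dox and 16w +dox, and those of thyrotrophs did not (0.999 to 3.73 FPM against 0.153 to 0.802). The summed gonadotroph markers were 28.9 to 92.3 FPM against 12.7 to 33.5 (*Lhb* called higher, 1 of 4 markers), the summed somatotroph markers 126 to 709 FPM against 91 to 176 (0 of 3 called), and *Prl* 9.04 to 67.9 FPM against 7.26 to 93.5. The part of these cells in the values of the set was not tested.

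**Figure D4:**
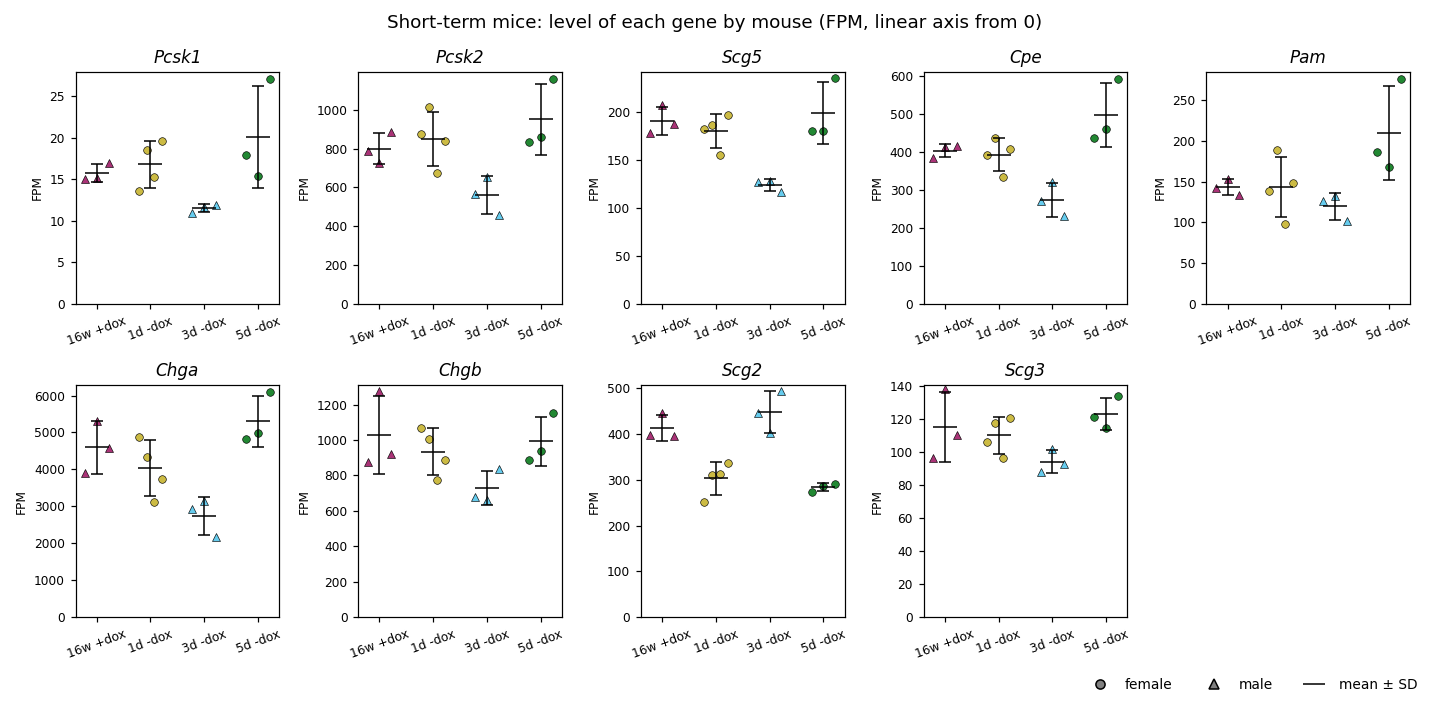
Level of the 9 listed genes in the 13 short-term mice (FPM, linear axis from 0), with circles for female mice, triangles for male mice and bars for the mean ± SD of a group. Apart from *Scg2*, the 3d -dox mean is the lowest of the 4 in every panel, for example 2748 ± 514 FPM against 4597 ± 713 FPM at 16w +dox for *Chga*.

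*Scg2* stood apart from the other members in the short-term mice. It was measured at 398.3, 446.8 and 395.3 FPM at 16w +dox, 251.7, 311.6, 312.2 and 336.7 FPM at 1d -dox, 446.4, 402.8 and 494.9 FPM at 3d -dox and 273.7, 285.6 and 291.6 FPM at 5d -dox. The 6 male mice (395 to 495 FPM) lay above all 7 female mice (252 to 337 FPM). The log2 fold change was -0.45 ± 0.10 (SE, adjusted p = 0.102) at 1 day and -0.54 ± 0.11 (SE, adjusted p = 0.0414) at 5 days, both female against male, and the latter was the only member of 9 lower at an adjusted p under 0.05 there, against 0.172% of all genes. Over 18 alternative settings, edgeR and DESeq2 included, the adjusted p at 5 days ran from 0.000174 to 0.15. Within a sex the log2 fold change was 0.11 ± 0.11 (SE, adjusted p = 0.636) for the male mice and -0.088 ± 0.10 (SE, adjusted p = 0.897) for the female mice. In these groups time and sex cannot be told apart. Among the long-term mice, the 2 male restored mice (3270 and 3893 FPM) lay above the 3 female ones (1983 to 2632 FPM), whereas at 12w+dox male (1994 and 2230 FPM) and female mice (1782 and 1995 FPM) overlapped.

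**Figure D5:**
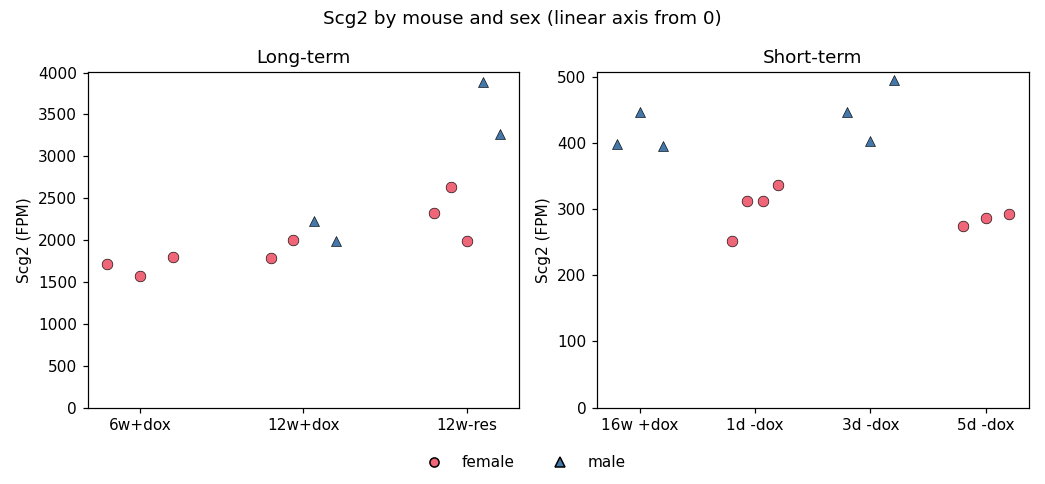
*Scg2* in each mouse by group and sex (FPM, linear axis from 0), long-term on the left and short-term on the right. In the short-term panel the 6 male mice (395 to 495 FPM) lie above the 7 female mice (252 to 337 FPM).

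Finally, for each member the gene outside the set with the most similar level across mice was found among genes with a mean of at least 10 FPM, as a description without a test. Groups, size factors and *Pomc* share are common to all points. Over the 12 long-term mice the closest genes were *Gsdma* for *Pam* (Pearson's r = 0.99), *Pld3* for *Scg3* (0.99), *Glt8d1* for *Pcsk1* (0.98), *Rpl4* for *Pcsk2* (0.98), *Vimp* for *Scg5* (0.98), *Rpl37* for *Chga* (0.98), *Slc25a1* for *Cpe* (0.96), *Syt7* for *Chgb* (0.94), *6330403K07Rik* for *Pcsk1n* (0.94) and *Rab28* for *Scg2* (0.91). With group means removed, these ranged from 0.72 (*Glt8d1*) to 0.97 (*Rpl37*). Over the 13 short-term mice *5330417C22Rik* was closest to both *Pcsk2* (0.99) and *Cpe* (0.98), *Sec61g* to *Scg5* (0.97), *Ssr1* to *Scg3* (0.97) and *Herc1* to *Scg2* (0.95). The correlation with *Pomc* differed by degrees between the members in the long-term mice. It was 0.98 for *Pcsk2*, 0.97 for *Scg5* and 0.94 for *Cpe*, and these stayed at 0.92, 0.87 and 0.93 with group means removed. *Chga* (0.86, then 0.74), *Scg3* (0.77, then 0.69) and *Pam* (0.92, then 0.61) followed. *Pcsk1* (0.88, then 0.20), *Chgb* (0.47, then -0.11) and *Scg2* (0.55, then -0.10) had lower values once group means were removed. *Pcsk1n* was low both ways and changed sign (-0.12, then 0.23).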

How the data were processed

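RNA-seq of whole pituitaries was analysed in 12 long-term mice (poly(A)-enriched RNA) and 13 short-term mice (RNA depleted of ribosomal RNA), grouped by the labels. Reads were aligned by the authors to the mouse genome with STAR. The counting tool and its use of strand are not given in the sources used here. The deposited values are a signal per gene, FPM, which the authors made by dividing reads by DESeq2 size factors and scaling to a common library size. All per-sample columns were used, and columns of the authors' own comparisons were not.

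Whole reads were recovered from the steps of low values for 100% of values, within 0.1 read. In the short-term mice, lines that name no gene (4 of them) held 68.8% to 75% of a library and were left out, as were 2 unnamed lines of the long-term table. Genes with at least 10 reads in over 50% of the samples of one group were tested with limma 3.58.1 (R 4.3.3) with a trend on log2(FPM + 0.5), all groups of an experiment in one fit, with Benjamini-Hochberg adjustment over all genes tested. Fold changes on this scale understate those of low genes. Genes were called at an adjusted p under 0.05 where the log2 fold change was also beyond 1 in either direction. edgeR 4.0.16 and DESeq2 1.42.0 on the recovered reads were alternatives. edgeR called 524 genes higher and 765 lower in 12w+dox vs 6w+dox, 1249 and 913 in 12w-res vs 12w+dox, and 1043 and 1055 in 12w-res vs 6w+dox. Other alternatives were the scaling, pseudocount, filter, minimum fold, samples in the fit, sex, a replicate block and leaving out each mouse. The scripts were tested on simulated data. Ratios were tested by an exact two-sided permutation test. Each library is 1 mouse, and p-values rest on the spread between mice, which limma combines with a variance shared by genes of similar level. The comparisons of an experiment share groups, so their results are not independent.

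The members and the gene lists were chosen with earlier results of these data known. All members are named, and from each list up to 2 called genes per direction and comparison, those with the largest change among genes whose groups do not overlap. Promoter sequences are from RefSeq (GRCm38.p6), searched on both strands, and matched 9 of 10 genes, *Cpe* being the exception.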

Additional observations from a re-analysis of the deposited data

Results flagged for a closer look

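Of 37 groups of values of the set tested for a single distant mouse, 2 held one, both for *Pcsk1n*, and chance alone gives about 1 in 20. At 12w+dox, replicate 2 stood at 494.0 FPM while the other 3 mice ranged from 566.2 to 575.2 FPM, a gap of 0.889 of the range of the group. In 12w-res, replicate 1 stood at 1009.9 FPM while the other 4 ranged from 435.0 to 480.8 FPM, a gap of 0.92 of the range. That mouse also held the most *Lhb*, *Fshb* and *Gh* of its group, but not the most *Gnrhr* or *Ghrhr* of the same lineages. The part of those cells was not tested.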

How the results depend on the processing

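With totals of reads as the scale, the members called were 0 in 12w+dox vs 6w+dox and 1 in 12w-res vs 12w+dox, and with totals without *Pomc* 0 in the former. Without a minimum fold they were 4, 7 and 7 in the 3 long-term comparisons and 1 each at 3d and 5d against 16w +dox. With sex as a covariate 1 was called in 12w+dox vs 6w+dox, and with female mice only 0 there and 2 in 12w-res vs 12w+dox. The cause was not tested.

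Signs changed only for log2 fold changes that had not been called. With totals, 12w+dox vs 6w+dox gave 0.088 for *Pcsk2*, 0.0088 for *Scg5* and 0.11 for *Pam* (without *Pomc* in the totals 0.013 for *Pcsk2* and 0.037 for *Pam*, and 0.15 for *Pam* in female mice), 12w-res vs 12w+dox gave -0.20 for *Scg2*, 12w-res vs 6w+dox gave -0.063 for *Chga* and -0.30 for *Scg3*, and 5d vs 16w gave -0.029 for *Scg5*. *Pcsk1n* in 12w-res vs 12w+dox was 0.057 with edgeR and 0.042 with DESeq2, and *Pam* at 1d was 0.0014 and 0.0018.

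Leaving out 1 mouse at a time gave 1 to 2 members called in 12w+dox vs 6w+dox, -0.65 to 0.035 for *Pcsk2* and -0.14 to 0.29 for *Cpe*. It gave -0.27 to 0.035 for *Pcsk1n* in 12w-res vs 12w+dox, and -0.035 to 0.43 for *Chga* and -0.077 to 0.12 for *Scg3* in 12w-res vs 6w+dox. At 1d the ranges were -0.011 to 0.18 for *Pcsk2*, -0.10 to 0.029 for *Cpe*, -0.18 to 0.14 for *Pam*, -0.23 to 0.043 for *Chgb* and -0.17 to 0.086 for *Scg3*. At 5d against 16w they were -0.078 to 0.12 for *Scg5*, -0.15 to 0.13 for *Chgb* and -0.006 to 0.25 for *Scg3*, and against 1d -0.02 to 0.17 for *Chgb*. The log2 ratio of *Pcsk2* to *Pcsk1* in 12w-res vs 6w+dox ranged from -0.50 to 0.31, and the median of members to *Pomc* at 3d, an alternative reading chosen after seeing the data, from 0.03 to 0.66.

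Replicate numbers did not pair the mice (correlations of deviations -0.208 to 0.237). With a replicate block, the members called were 2, 5 and 2 in the long-term comparisons and 0 in the short-term ones, *Chgb* entering and *Pcsk2* leaving, and *Pcsk1n* in 12w-res vs 12w+dox was 0.0055.

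Over all genes DESeq2 called 29 higher and 84 lower at 1d, 72 and 32 at 3d, 35 and 105 at 5d, and 4 and 3 for 5d vs 1d, where limma called 1 and 5, 11 and 7, 12 and 15, and 1 and 1. Totals gave 1058 and 317 in 12w+dox vs 6w+dox and 497 and 1638 in 12w-res vs 6w+dox, against 483 and 619, and 890 and 892. Of 1326 alternative log2 fold changes, 1247 kept their direction and their side of the thresholds. No member had fewer than 504 reads in a mouse.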
